A study of Saccharomyces cerevisiae with 95 samples.

Results

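A steady-state, glucose-limited chemostat culture of the wild-type haploid budding yeast strain BY4741 was given a pulse of its limiting nutrient, and its transcripts were followed on 8 two-color arrays. The course comprised every array of the series whose label names a glucose addition to that chemostat, which gave 8 of 95 arrays. One array came from 1.18 h before the pulse, and 7 came from 0.25, 1.08, 1.58, 3.08, 5.08, 8.08 and 9.8 h after it. By the labels the limited medium held 0.02% glucose, and glucose was added for a stated final concentration of 0.04%. The sugar left in the vessel at each time is not given in the sources used here. Cy5 carried the chemostat sample and Cy3 carried BY4741 cells from a batch culture grown to late log phase in the glucose-limited medium, so both channels hold the same strain. A log2 ratio to this batch culture is given here as a ratio, and a ratio minus that of the array before the pulse is given as a change, from which the batch culture cancels. There was 1 culture with 1 array at each time. The spread was therefore taken from the 5 steady-state arrays of glucose-limited BY4741 cultures, which were the array before the pulse and those taken before DTT, heat shock, NaCl and H2O2. BY4741 is a *MAT*a strain that carries deletions of *HIS3*, *LEU2*, *MET15* and *URA3*, and so depends on the medium for the missing products. The first array after 6 mM DTT, heat shock at 39 degrees, 0.4 M NaCl or 0.6 mM H2O2 given to glucose-limited BY4741 cultures is used for comparison. So is a histidine pulse to a histidine-limited chemostat of another *MAT*a strain. That strain is W303-1 bar1::PADH1-CFP, with mutations in *LEU2*, *TRP1*, *HIS3*, *URA3* and *ADE2*. Also used are 3 arrays of BY4741 with *ADH1* deleted, taken after transfer to fresh glucose medium. Their reference is an overnight culture of the same mutant on rich glucose medium.

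Budding yeast ferments glucose even in air when the sugar is plentiful and respires it when the sugar is scarce. Glucose is taken up by a family of hexose transporters, is sensed at the membrane and, after phosphorylation, inside the cell, and represses genes for respiration, gluconeogenesis and the use of fatty acids, acetate and ethanol. Through the Ras and protein kinase A pathway it also raises the genes that build ribosomes and lowers those of the general stress response. In a glucose-limited chemostat the residual sugar is low and cells respire, and an added pulse is consumed and washed out with the outflow while the feed goes on.

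All 6132 ORFs had a value on each of the 8 arrays, between 29 and 43 values per array were exactly 0, and the array medians lay within 0.002 of 0. The deposited ratios carry no spot intensities, so how bright each spot was cannot be given, and precision is limited by having 1 array per time. The SD over ORFs of the change from the array before the pulse was 0.89 at 0.25 h, 0.60 at 1.08 h and 0.47 to 0.58 at the other times. Between any 2 of the 5 steady states it was 0.30 to 0.45, which is below the values at all 7 times. The array before the pulse had the highest median ratio of the 5 steady states for the stress module (-0.03, the lowest being -0.27), trehalose and glycogen genes (0.15, -0.19) and mating-type genes (0.25, -0.29). It had the lowest for aminoacyl-tRNA synthetases (-0.26, the highest being 0.16) and the histone module (0.03, 0.44). Several other lists also had their lowest or highest median on this array. Taken from the mean of the 5 steady states in place of this array, the median at 0.25 h was -1.31 in place of -1.49 for stress, -1.21 in place of -1.13 for trehalose and glycogen, 0.70 in place of 0.90 for mating type and 0.81 in place of 1.04 for the synthetases. The last 2 arrays stood apart from their neighbours. Across ORFs, which are not independent replicates, the ratios at 0.25 h correlated with those at 1.08, 1.58, 3.08, 5.08, 8.08 and 9.8 h at r = 0.72, 0.58, 0.44, 0.09, -0.002 and 0.71. The 9.8 h array thus lay closer to the 0.25 h array than those at 1.58 to 8.08 h did, while at 8.08 h the stress genes were high. Whether these 2 arrays reflect the culture, its handling or an exchange of samples or labels was not tested, so each value at 8.08 and 9.8 h holds only as far as those labels do. Results up to 5.08 h do not use them. Since both channels hold a *MAT*a strain, genes of the mating types do not check the identity of the sample by their ratios.

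An ORF was counted as changed (called) when its difference from the mean of the 5 steady states had a limma p under 0.05 after Benjamini-Hochberg adjustment over all ORFs and its change from the culture's own earlier array had the same sign. At 0.25 h, 926 ORFs rose and 960 fell, which was 30.8% of those tested (15.1% higher and 15.7% lower). The counts were 83 higher and 161 lower at 1.08 h (3.98%), 19 and 54 at 1.58 h (1.19%), 20 and 27 at 3.08 h (0.766%), 31 and 12 at 5.08 h (0.701%), 445 and 264 at 8.08 h (11.6%) and 342 and 318 at 9.8 h (10.8%). At an unadjusted p under 0.05 the totals were 2569, 1362, 1050, 1175, 1343, 1760 and 1774 in order of time. Large changes at 0.25 h were mostly downward, with 181 of the called ORFs at least 4-fold lower and 55 at least 4-fold higher. The ORFs called higher at 0.25 h had a median change of 1.01 then, and of 0.35, 0.18, 0.12, -0.05, -0.08 and 0.43 at the later times. Those called lower had a median of -1.14 and then of -0.34, -0.13, -0.01, 0.19, 0.24 and -0.39. All changes share the array before the pulse, and each time point is 1 array that is assumed to vary like the steady states. Leaving out 1 steady state moved the total at 0.25 h to between 1477 and 1814. Without the one of the DTT course the totals were 132 at 1.08 h, 300 at 8.08 h and 252 at 9.8 h, and without that of the NaCl course they were 157 at 1.08 h and 407 at 9.8 h. At 1.58, 3.08 and 5.08 h each of the 5 moved the total by over 1.5 times, to between 27 and 44, between 0 and 7 and between 1 and 14, so calls at these 3 times depend on every steady state. Without the arrays at 8.08 and 9.8 h the totals up to 5.08 h were the same, at 1886, 244, 73, 47 and 43.

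**Figure D1:**
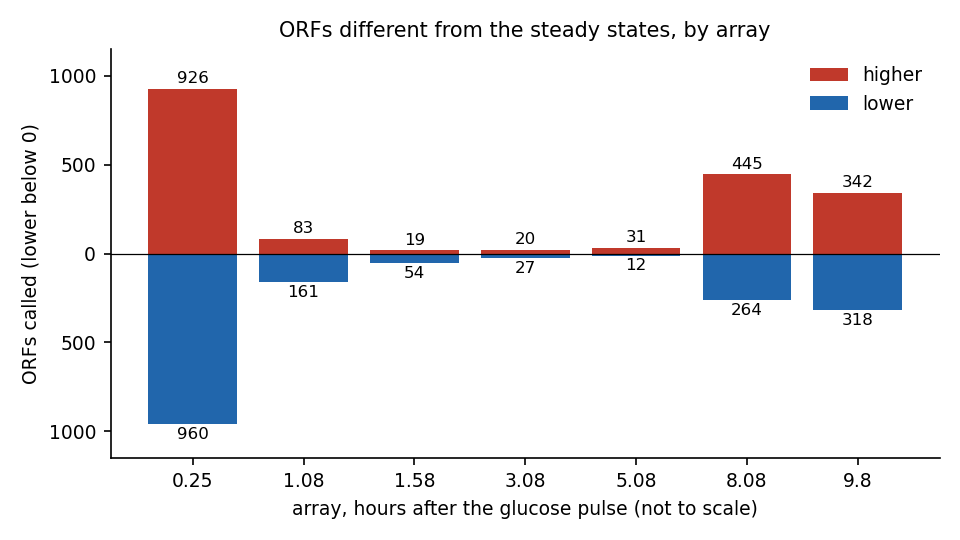
ORFs called higher (red, above 0) and lower (blue, below 0) than the 5 glucose-limited steady states on each array after the glucose pulse, as counts on the vertical axis. Calls are most numerous at 0.25 h (926 and 960), few at 5.08 h (31 and 12) and more numerous again at 8.08 and 9.8 h. Few calls do not show that the response had ended. At an unadjusted limma p under 0.05 there were 1343 ORFs at 5.08 h and 1050 at 1.58 h.

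Among called ORFs, the 10 largest decreases at 0.25 h lay between -6.69 and -4.56. *RGI2* (YIL057C), which is needed for energy metabolism under respiratory conditions, had ratios of -0.19 before the pulse and -6.87, -5.38, -2.72, -1.41, 0.18, 1.11 and -2.82 after it. It fell by 6.69 on the log2 scale, or 103.1-fold (limma estimate against the 5 steady states -7.43, standard error 0.59, Benjamini-Hochberg adjusted p = 0.000132), came back over hours and was low again at 9.8 h. *SIP18* (YMR175W), which codes for a phospholipid-binding hydrophilin of desiccation, had ratios of 0.12, then -6.50, -6.26, -4.14, -2.43, 0.03, 3.81 and -1.24. Its steady states ranged from -2.53 to 0.12, so that the culture's own baseline was the highest of the 5. *SPG4* (YMR107W), required for survival in stationary phase, changed by -6.59, -4.96, -3.62, -1.94, 0.84, 1.96 and -2.82. The acetate transporter gene *ADY2* (YCR010C) fell by 5.82 and the related *ATO3* (YDR384C) by 4.56, and both were still called lower at 3.08 h. Of the other genes among the 10 largest decreases, *HSP12* was also called lower at 1.08 h, and the rest were not. They were the nicotinamidase gene *PNC1* (-5.50 at 0.25 h and -0.66 at 1.08 h), *RGI1* (-5.12 and -0.14), *TMA10* (-5.01 and -0.85), *STF2* (-4.93 and -1.20), which stabilizes the inhibitor of the mitochondrial ATP synthase, and the membrane hydrophilin gene *HSP12* (-4.82 and -2.27). The highest limma adjusted p among these 10 genes was 0.00188 (Benjamini-Hochberg).

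The 10 largest increases among called ORFs were smaller, between 2.59 and 3.56. The cell wall gene *UTR2* had a change of 2.75 without a call. *PRM7* (YDL039C), a pheromone-regulated membrane protein gene, had a ratio of -0.06 before the pulse, 3.50 at 0.25 h and 0.09 at 1.08 h. It stayed between -0.16 and 0.70 afterwards, so that its 11.8-fold rise was seen on the first array and had left by the second. *TPO2*, a polyamine exporter gene (2.59 at 0.25 h and -0.35 at 1.08 h), *AQR1*, an exporter of amino acids and short-chain acids (2.93 and -0.13), *MCM21*, a kinetochore gene (2.62 and 0.18), and *DBP2*, an RNA helicase gene (2.64 and 0.33), were equally brief. *OAC1* (YKL120W), the mitochondrial carrier of oxaloacetate and of a leucine precursor, and *LEU1* (YGL009C), isopropylmalate isomerase of leucine synthesis, rose for longer. *OAC1* had ratios of -0.58, then 2.79, 1.35, 1.09, 1.20, 0.77, -0.88 and 1.36, and *LEU1* had -1.24, then 1.97, 1.26, 0.69, 0.37, -0.92, -1.34 and -0.32. The iron-sulfur scaffold gene *ISU2* (3.46), the adenine deaminase gene *AAH1* (3.01) and *SAM1* (2.86), which makes S-adenosylmethionine, complete the 10, with a highest limma adjusted p of 0.00100 (Benjamini-Hochberg).

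**Figure D2:**
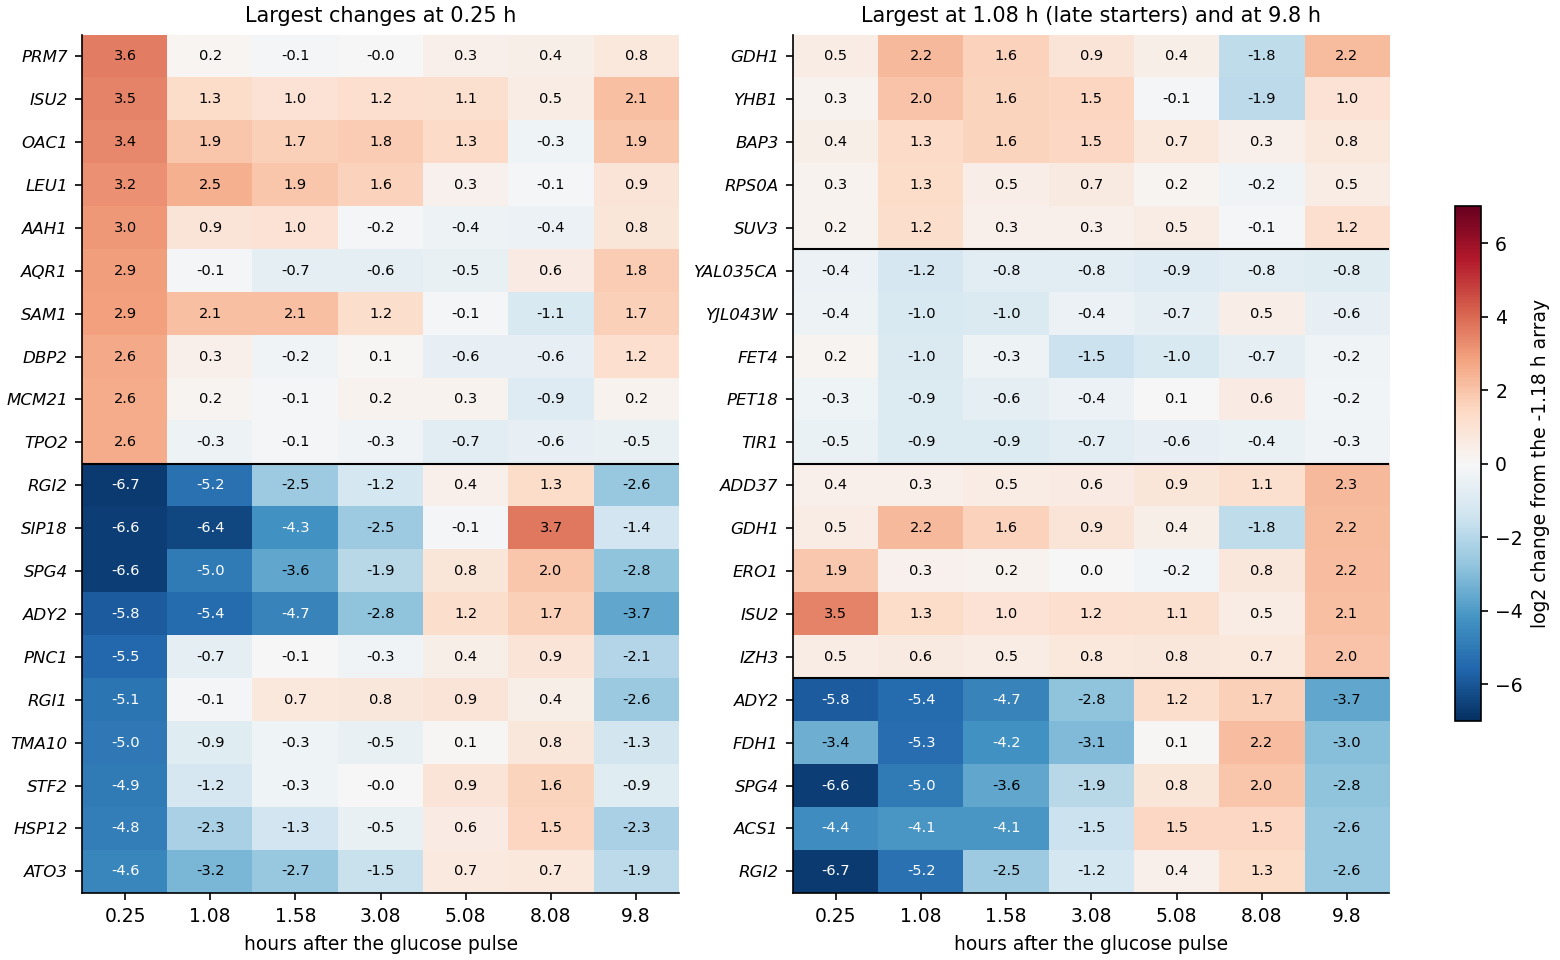
Log2 change from the array before the pulse (color and printed value), by hours after the pulse. The left panel has the genes with the 10 largest increases and decreases at 0.25 h. The right panel has those with the 5 largest each way at 1.08 h and at 9.8 h. Those picked at 1.08 h had no call and an absolute change under 0.5 at 0.25 h. *RGI2*, *SIP18*, *SPG4*, *ADY2* and *ATO3* stay low to 3.08 h, *PNC1* and *RGI1* are back near 0 at 1.08 h, and most genes that fell first are low again at 9.8 h.

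Of the 11 hexose transporter genes, 7 fell at 0.25 h and 1 rose, and the median change was -1.78 against 0.00 over all ORFs. *HXT4* (YHR092C) had ratios of 0.95 before the pulse and -1.56, 2.11, 1.75, 1.35, 0.95, 1.06 and 1.07 after it, so that it fell 5.7-fold and stood above its baseline less than an hour later. *GAL2* (-2.47), *HXT8* (-2.45), *HXT1* (-1.93), *HXT10* (-1.91), *HXT9* (-1.78) and *HXT5* (-1.64) fell too. At 1.08 h these 7 genes had changes of 0.46 to 1.17, none of which was called. The list median was then 0.84 from the culture's own array and 0.41 from the mean of the 5 steady states. Their coding sequences are similar, and the similar courses of *HXT4*, *HXT1*, *HXT8*, *HXT9*, *HXT10* and *GAL2* may include shared hybridisation, which was not tested. *HXT3*, a low-affinity transporter, rose by 0.61 (limma estimate 0.69, standard error 0.17, adjusted p = 0.0193, Benjamini-Hochberg), above all 5 steady states. The high-affinity transporter *HXT2* had a change of -0.17 and then of 1.40, 0.91, 0.69, 0.25, 0.67 and 1.89, without a call. The near-identical *HXT6* (0.22) and *HXT7* (-0.40), which arrays of this kind may not separate, were not called until 8.08 h, when both rose (1.41 and 0.88).

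**Figure D3:**
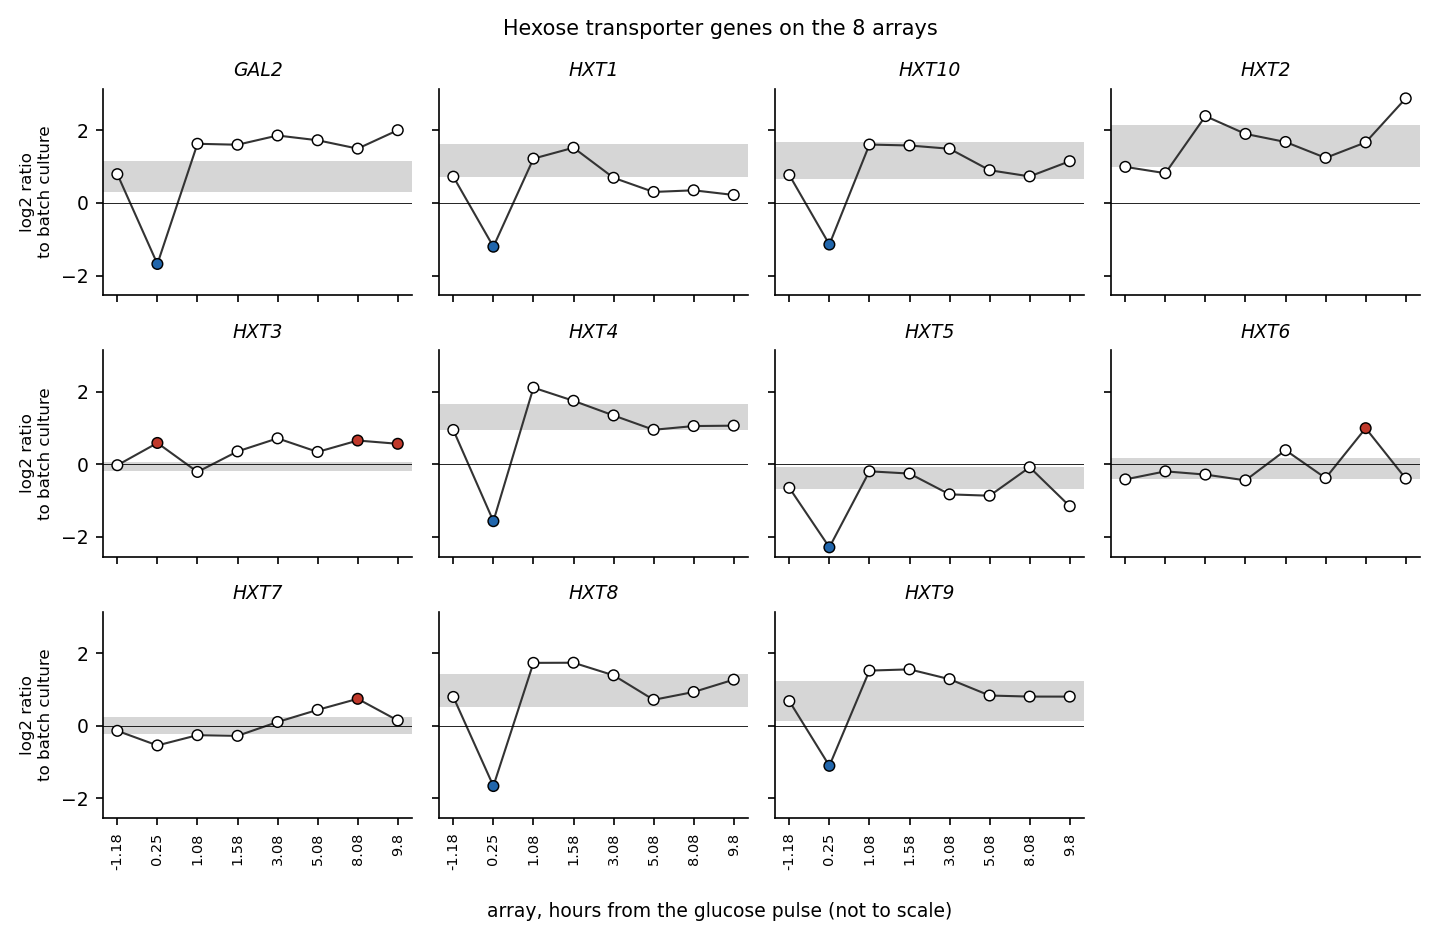
Log2 ratio to the batch culture of the 11 hexose transporter genes on the 8 arrays. The gray band is the range of the 5 glucose-limited steady states, and points are blue where called lower, red where called higher and white otherwise. In 7 genes the 0.25 h array lies far below the band and the 1.08 h array within or above it, while *HXT3* lies above the band at 0.25 h.

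Of 16 genes that sense glucose and relay repression, 3 were higher and 3 lower at 0.25 h (18.75% each way). These shares are close to those over all ORFs (15.1% higher and 15.7% lower). *MIG2*, a repressor that glucose induces, rose by 1.07 and *STD1*, a regulator of glucose-dependent transcription, by 1.27, and the low-affinity sensor gene *RGT2* rose by 0.50, while the high-affinity sensor gene *SNF3* fell by 0.84. The 3 genes for the first step of sugar use fell together at 0.25 h and then parted. Glucokinase *GLK1* (YCL040W) fell by 3.97, 15.6-fold, had changes of -0.30 and -0.18 at 1.08 and 1.58 h, and was called higher at 5.08 h (1.37). Hexokinase *HXK1* (YFR053C) had ratios of 0.55, then -2.06, 2.31, 2.81, 1.78, 1.93, 1.32 and 1.11, so that it fell 6.1-fold and was called higher at 1.08 and 1.58 h. *HXK2*, the hexokinase that also acts in repression, fell by 1.70 and had changes of 1.77, 1.64 and 1.46 at the next 3 times, which were not called. Of 17 glycolytic genes in all, 7 fell and 0 rose at 0.25 h (median -0.60, or -0.32 from the mean of the 5 steady states), among them phosphoglycerate kinase *PGK1* (-2.44) and the glyceraldehyde-3-phosphate dehydrogenase genes *TDH1*, *TDH2* and *TDH3* (-1.36, -1.63 and -1.31), whose sequences are alike.

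Among 13 genes of fermentation and acetate metabolism, 4 rose and 6 fell at 0.25 h (30.8% and 46.2%, against 15.1% and 15.7% of all ORFs). The pyruvate decarboxylase genes *PDC1*, *PDC5* and *PDC6*, which take pyruvate to acetaldehyde, rose by 2.16, 2.53 and 2.19 and were also called higher at 1.08 h (2.15, 1.90 and 1.71). The 3 are close paralogs and their spots may not be independent. *ADH2*, the alcohol dehydrogenase that oxidizes ethanol, had changes of -2.74, -2.89, -1.90, -0.63, 0.75, 0.79 and -1.05, and was called lower up to 1.58 h. The ORF of the closely similar *ADH1* gave -2.06, -2.30 and -1.12 at those times. The mitochondrial aldehyde dehydrogenase gene *ALD4* fell by 3.00 and was also lower at 1.08 and 1.58 h (-2.04 and -1.86). Transcripts of the decarboxylase genes were thus up, and those of the alcohol and aldehyde dehydrogenases named here were down, on the first 2 arrays.

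Of 14 genes of gluconeogenesis, the glyoxylate cycle and acetate use, 10 fell and 1 rose at 0.25 h, with a median change of -2.41. At 1.08 h 9 were called lower, against 2.63% of all ORFs in that direction. The median then moved through -1.41, -0.05 and 0.92 to 1.40 at 5.08 h and was -0.69 at 9.8 h. *FBP1*, fructose-1,6-bisphosphatase, had the lowest ratios, at -3.90 before the pulse and -8.27, -7.29, -5.84, -2.35, -2.00, -4.17 and -5.80 after it. The fall at 0.25 h was 20.6-fold. *ACS1*, acetyl-coenzyme A synthetase, changed by -4.37, -4.09, -4.09, -1.53, 1.47, 1.46 and -2.64. *SFC1*, a mitochondrial succinate-fumarate carrier gene (-4.28), *IDP2*, cytosolic isocitrate dehydrogenase (-3.12), *CIT2*, peroxisomal citrate synthase (-2.99), and *PCK1*, phosphoenolpyruvate carboxykinase (-2.45), fell as well. At 5.08 h, 4 of the 14 genes were above the steady states, against 0.506% of all ORFs in that direction. These were *CIT2* (2.68), *MLS1*, malate synthase (2.62), *ICL1*, isocitrate lyase (2.53), and *IDP2* (1.33). Calls at this time depend on every steady state, since with 1 left out only 1 to 14 of all ORFs were called. For *ICL1* the ratios were -4.66 before, -6.22 and -5.97 at 0.25 and 1.08 h, and -2.42 and -2.13 at 3.08 and 5.08 h, while its 5 steady states lay between -4.66 and -4.05. Among the activators of these genes, *ADR1* rose by 1.48 at 0.25 h, and *CAT8* and *SIP4* had changes of 0.38 and -0.11 without a call. Of 8 genes of the GID ubiquitin ligase, which marks gluconeogenic enzymes for breakdown, 6 fell at 0.25 h. They included the conjugating enzyme gene *UBC8* (-1.76) and *VID30* (-1.10), whereas *VID24*, its substrate receptor, rose by 1.71. At 1.08 h 0 of the 8 were called.

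Respiratory genes fell at 0.25 h and had changes near or above 0 on the next array. Of 35 measured genes of the respiratory chain and ATP synthase, 32 fell and 0 rose at 0.25 h, all 35 had a change below 0, and the median was -1.49. At 1.08 h 0 were lower and 1 was higher, and the medians from then to 5.08 h were 0.30, 0.39, 0.59 and 0.59. *CYT1*, cytochrome c1 (-3.22), *CYC1*, the main cytochrome c (-2.49), and *RIP1*, the Rieske protein (-2.40), fell most, and the range over the list at 0.25 h was -3.22 to -0.43. *NDI1*, the internal NADH dehydrogenase, fell by 1.49 and was called above the steady states at 1.08, 1.58, 5.08 and 8.08 h (1.10, 1.30, 1.82 and 0.94). The TCA cycle had 13 of 17 genes lower and 0 higher at 0.25 h (median -2.05) and medians of 0.42, 0.18, 0.82 and 0.72 at the next 4 times. From the mean of the 5 steady states these 4 medians were 0.10, 0.12, 0.56 and 0.55. For *CIT1*, *IDH1*, *IDH2* and *ACO1* the culture's own array was the lowest of the 5. Mitochondrial malate dehydrogenase *MDH1* had ratios of -0.64 before the pulse, -5.02 at 0.25 h and -0.29 at 1.08 h, a fall of 20.8-fold that had gone within an hour. *CIT1* (-3.84), *IDH1* (-3.36), *IDH2* (-3.35) and *ACO1* (-2.79), the first enzymes of the cycle, moved in the same way. Succinate dehydrogenase *SDH1* had ratios of -1.72, then -4.60, -0.62, -0.21, 0.10, 0.37, -1.17 and -0.53, and was called lower at 0.25 h and higher at each other time except 8.08 h. In the module of mitochondrial ribosomal proteins, 60 of 100 genes fell at 0.25 h and 2 were lower at 1.08 h.

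Transcripts of most listed genes of fatty acid breakdown stayed low up to 1.58 h. Of 15 genes of peroxisomal beta-oxidation and the carnitine shuttle, 12 fell at 0.25 h, 11 were lower at 1.08 h, 9 at 1.58 h (against 0.881% of all ORFs) and 4 at 3.08 h (against 0.44%). The medians at these times were -1.90, -1.65, -1.24 and -0.79. With 1 steady state left out, the totals called over all ORFs were 27 to 44 at 1.58 h and 0 to 7 at 3.08 h. *FOX2*, the multifunctional enzyme of the pathway, had ratios of -0.32, then -2.71, -2.77, -2.20, -1.83, 0.19, 1.02 and -2.18. *POT1*, the thiolase, had -0.34, then -2.91, -3.10, -2.46, -1.90, 0.15, 1.95 and -2.17. Both were thus about as low at 1.08 h as at 0.25 h, above the baseline at 5.08 and 8.08 h, and low again at 9.8 h. *SPS19* (-3.44), the acyl-coenzyme A oxidase gene *POX1* (-1.68) and the activating enzyme gene *FAA2* (-2.10) followed this course, whereas the peroxisomal catalase gene *CTA1* rose by 1.31 at 0.25 h. *FDH1*, formate dehydrogenase, reached its lowest change at 1.08 h, with -3.42, -5.32, -4.24 and -3.10 on the first 4 arrays.

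**Figure D4:**
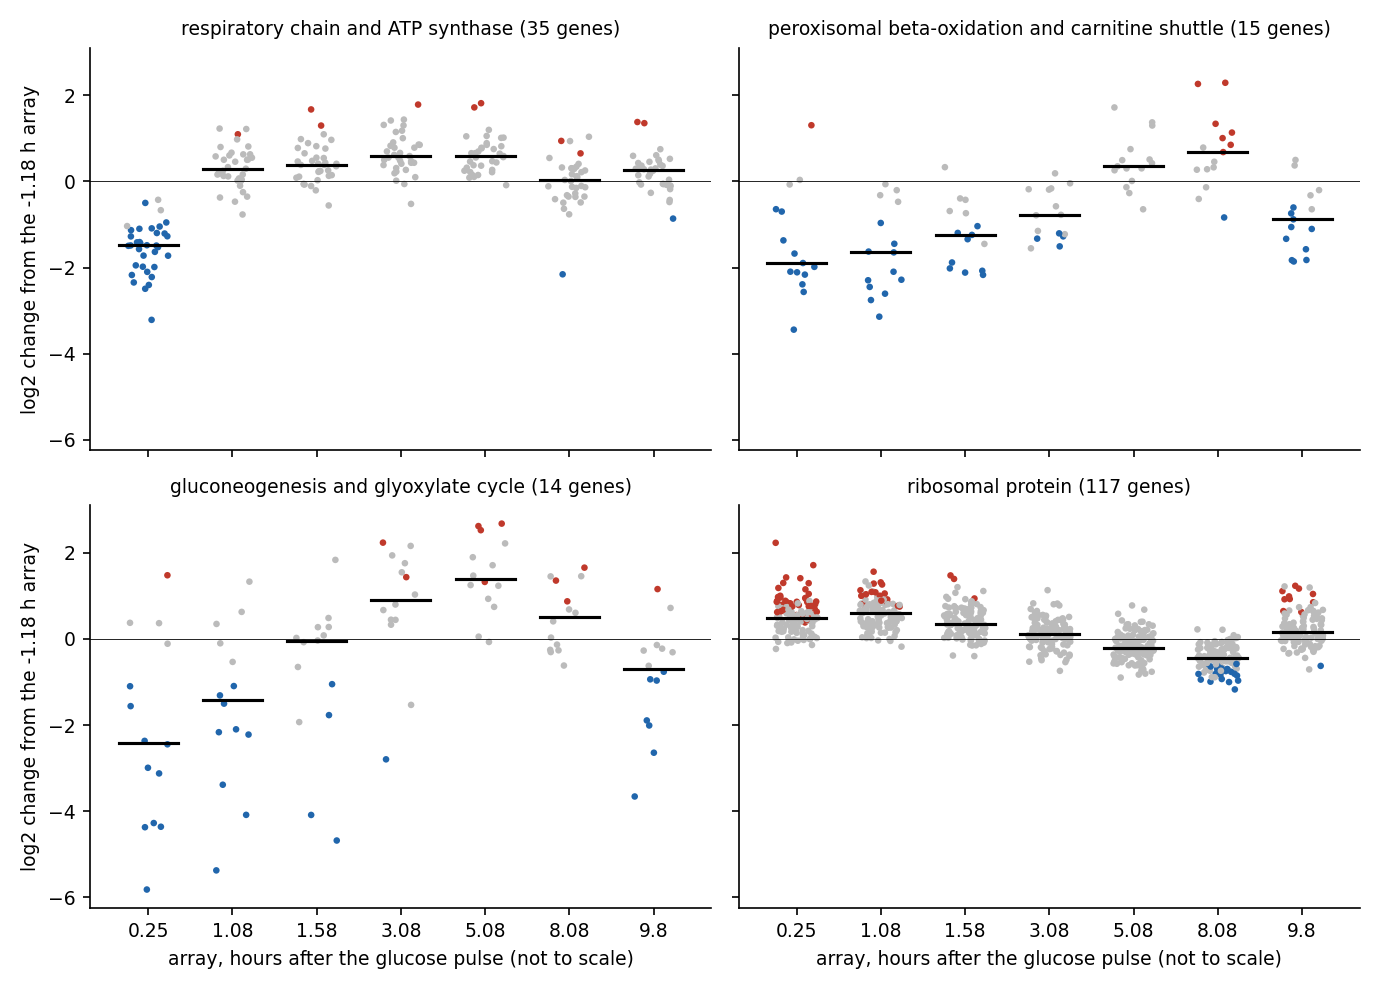
Log2 change from the array before the pulse of each gene of 4 lists at each time (points, blue where called lower, red where called higher, gray otherwise), with the list median as a black line. Respiratory chain genes fall at 0.25 h and stand near or above 0 from 1.08 h, genes of beta-oxidation and gluconeogenesis are still low at 1.08 h, and ribosomal protein genes are highest at 0.25 and 1.08 h.

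Reserve carbohydrate and stress genes fell together with these. Of 19 genes of trehalose and glycogen metabolism, 12 fell and 0 rose at 0.25 h (median -1.13), led by glycogen phosphorylase *GPH1* (-3.52), phosphoglucomutase *PGM2* (-2.88), trehalose-phosphate phosphatase *TPS2* (-2.17) and the glycogen synthases *GSY1* and *GSY2* (-2.12 and -2.09). Genes for the making and for the breakdown of glycogen thus fell alike, and the trehalase genes *NTH1*, *NTH2* and *ATH1* had changes of -0.07, -0.04 and -0.06. Of 18 heat shock protein genes, 11 fell, including the disaggregase gene *HSP104* (-3.15) and the small heat shock protein gene *HSP26* (-3.50), and 1 rose, the Hsp110 gene *SSE1* (1.79). In the stress module, 167 of 255 genes were lower and 1 higher at 0.25 h, 26 and 3 at 1.08 h and 3 and 3 at 1.58 h, with medians of -1.49, -0.37 and -0.13. The single stress gene called higher at 0.25 h stands against 238 of 255 with a change below 0. At 5.08 h the median was 0.33, with 9 genes called higher and 0 lower. The peroxide shock module, which holds antioxidant genes, had 7 of 25 lower at 0.25 h and 6 at 1.08 h, with medians of -0.40 and -0.49. From the mean of the 5 steady states these medians were -0.35 and -0.27.

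Genes that build ribosomes rose and then left their peak quickly. In the ribosomal biogenesis module, 202 of 231 genes rose at 0.25 h and 1 fell, with a median change of 1.25, and at 1.08 h 2 genes were called higher and the median was 0.20. From 1.58 to 8.08 h the median lay between -0.28 and -0.04. Of 21 subunit and initiation factor genes of RNA polymerases I and III, which make ribosomal and transfer RNA, 17 rose (median 1.18), and 0 were called higher at 1.08 h, when the median was 0.28. *RPA12* (YJR063W) had ratios of 0.08, then 2.48, 0.80, 0.71, 0.73, 0.86, 0.81 and 1.89. The exception was *RPA14*, which fell by 2.08. In purine synthesis 13 of 21 measured genes rose, most of them in the guanine branch and in the making of phosphoribosyl pyrophosphate, such as *GUA1* (2.23), *IMD4* (2.11) and *PRS5* (2.06), while *ADE16* fell by 0.49. Of 11 genes for 1-carbon metabolism, 1 was higher (9.09%, against 15.1% of all ORFs), and so short a list cannot tell these shares apart.

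Ribosomal protein genes rose less and kept their level longer. Of 117 genes in that module, 40 rose at 0.25 h (median 0.50), 17 at 1.08 h (median 0.60, against 1.35% of all ORFs called higher) and 3 at 1.58 h (median 0.36, against 0.31%), with 0 lower at each of these times. The module also holds genes that are not ribosomal proteins, such as *GUA1* and the ribosome-bound chaperone gene *SSB2*, which changed by 1.72, 1.56, 1.48, 1.13, 0.78, 0.04 and 1.24. The cytosolic aminoacyl-tRNA synthetases, which charge tRNAs, had medians of 1.04, 0.92, 0.55, 0.58, -0.05, -0.31 and 0.46, with 9 of 18 higher at 0.25 h and 4 at 1.08 h. *VAS1* (2.09) and *ILS1* (1.83), for valine and isoleucine, rose most. A further 20 genes were called higher at 1.08 h without a call at 0.25 h and with a change under 0.5 then, and 9 of them code for ribosomal proteins, with changes at 1.08 h between 0.85 and 1.29. The largest of the 20 were those of *GDH1*, glutamate dehydrogenase for ammonium assimilation (0.49 at 0.25 h and 2.25 at 1.08 h), and *YHB1*, a flavohemoglobin that removes nitric oxide (0.25 and 1.97). *BAP3*, an amino acid permease gene (1.34), *RPS0A* (1.29) and *SUV3*, a mitochondrial RNA helicase gene (1.21), followed. The 9 genes that fell on this pattern had changes of -1.20 or smaller size, and included the iron transporter gene *FET4* (-1.01) and the cell wall gene *TIR1* (-0.94). The highest limma adjusted p among the 5 named rises was 0.0498 and among the 5 named falls 0.0475 (Benjamini-Hochberg), close to the threshold.

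**Figure D5:**
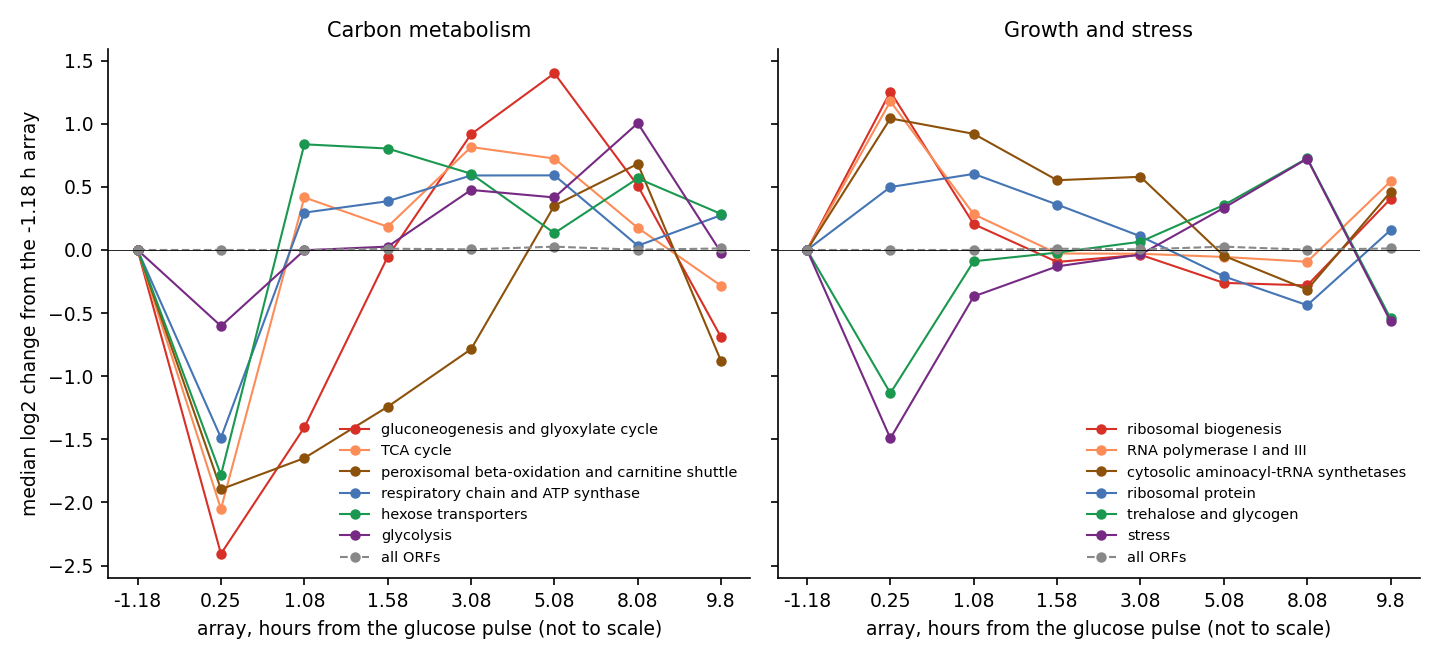
Median log2 change from the array before the pulse over the genes of 6 lists of carbon metabolism (left) and 6 of growth and stress (right) on the 8 arrays, with the median over all ORFs dashed. Respiratory, TCA and hexose transporter genes are back above 0 at 1.08 h, beta-oxidation genes only at 5.08 h, and at 9.8 h most medians have moved in their direction of 0.25 h.

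In the amino acid biosynthesis module 52 of 292 genes rose and 34 fell at 0.25 h (17.8% and 11.6%). This is close to the shares over all ORFs (15.1% and 15.7%). The nitrogen permease list had 2 of 16 genes higher and 2 lower (12.5% each way), near the shares over all ORFs. The falls were those of *DIP5* (-2.46) and *PUT4* (-1.98), permeases for acidic amino acids and for proline. Of 13 genes of Start and the G1 cyclins, 1 was higher (*PCL2*, 0.85) and 1 lower (*CLN1*, -0.49). These are shares of 7.69% each way, below those over all ORFs, in a short list. *CLN3* had a change of 0.03. Of 23 genes of Ras, protein kinase A and related growth signalling, 4 rose and 3 fell, near the shares over all ORFs at 17.4% and 13.0%. The genes that rose included the phosphodiesterase gene *PDE2*, which lowers cyclic AMP and rose by 1.48. All 5 genes specific to a cells rose at 0.25 h, at 1.97 for *BAR1*, 1.86 for *STE2*, 1.20 for *MFA2*, 1.18 for *MFA1* and 0.90 for *STE6*. None of the 4 genes specific to alpha cells was called, with changes between -0.26 and 0.32. *STE2*, the receptor for alpha factor, had ratios of 0.26, then 2.12, 1.97, 2.11, 1.48, 0.39, 0.24 and -0.22, and its 5 steady states ranged from -0.26 to 1.00. In the PAU module 9 of 63 genes rose and 10 fell (14.3% and 15.9%), close to the shares over all ORFs. In the phosphate module 9 of 42 rose and 3 fell (21.4% and 7.14%).

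At 8.08 h the pattern opposed that of 0.25 h in several groups. Of the 255 stress genes 114 were called higher and 2 lower (median 0.72), against 7.26% of all ORFs higher and 4.31% lower, and 10 of 19 trehalose and glycogen genes and 9 of 17 glycolytic genes were higher. Among called ORFs the largest rises were those of the stationary-phase gene *SPG1* (4.07), *SIP18* (3.69), the hydrophilin gene *GRE1* (3.47), the proteinase inhibitor gene *PAI3* (3.43) and *SHH3* (3.34), chosen after their values were seen. *HSP26* had a ratio of 0.94 on this array and of -5.77 to -2.27 on the other 7, and *ENO2*, enolase, had 2.14 and between -0.45 and 0.49. On the low side stood 21 of 117 ribosomal protein genes and 15 of 56 genes of the G2-M module, and *CYC1*, with a change of -2.16 between 0.09 at 5.08 h and 0.25 at 9.8 h. With the mean of the 5.08 and 9.8 h arrays in place of this one, the stress median was -0.09 in place of 0.72.

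At 9.8 h the pattern turned back to that of 0.25 h at smaller size. Of the stress genes 60 were lower and 4 higher (median -0.57, against 5.19% of all ORFs lower), 10 of 15 beta-oxidation genes and 7 of 14 gluconeogenesis genes were lower, and 36 of 231 ribosomal biogenesis genes were higher against 5.58% of all ORFs. Respiratory genes did not take part, with 2 higher and 1 lower of 35 (median 0.28). Among called ORFs the largest decreases were those of *ADY2* (-3.66), *FDH1* (-2.98), *SPG4* (-2.82), *ACS1* (-2.64) and *RGI2* (-2.63). The largest increases among called ORFs were those of *ADD37*, with a role in protein degradation at the endoplasmic reticulum (2.29), *GDH1* (2.22), *ERO1*, the oxidase of protein folding there (2.18), *ISU2* (2.11) and *IZH3*, linked to zinc homeostasis (2.02). *ADD37* and *IZH3* had ratios of 0.37 and -0.05 at 0.25 h, where neither was called, and of 2.31 and 1.44 at 9.8 h. The histone module had 9 of 42 genes higher and 0 lower (median 0.81), after 0 higher and 9 lower at 8.08 h (median -0.26). From the mean of the 5 steady states these medians were 0.59 and -0.58.

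The first array after 4 stresses given to the same kind of culture served to ask where the pulse differs from an upset of any kind. No ORF passed limma at a Benjamini-Hochberg adjusted p under 0.05 (1 course against 4, 0%), with 1187 ORFs at an unadjusted p under 0.05 and a lowest adjusted p of 0.11, so the values are given as a description. Ribosomal biogenesis genes had a median change of 1.25 after glucose and of -0.04, -1.13, -1.25 and -0.37 after DTT, heat shock, NaCl and H2O2. Stress genes had -1.49 after glucose and -0.07, 0.99, 1.16 and 0.14 after the stresses in that order. Respiratory chain genes had -1.49 after glucose, -0.96 after NaCl and -0.19 to 0.52 after the other 3. The hexose transporters had -1.78 after glucose and -2.65 after NaCl, and between -0.28 and -0.04 after DTT, heat shock and H2O2, so its median was low after NaCl as well as after the pulse. Beta-oxidation genes had -1.90 after glucose and between -0.64 and 0.64 after the stresses, and gluconeogenesis genes -2.41 and between -0.62 and 0.56. In the histidine-limited chemostat of the W303-1 strain, grown with ample glucose and given histidine, the same 6 lists had medians between -0.08 and 0.23 on the first array.

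Arrays that share no sample with the pulse show which groups also move when cells grown on glucose medium are transferred to fresh glucose medium. They compare cells of an *ADH1* deletion mutant 0.5, 2 and 4 h into growth on glucose with an overnight culture of the same mutant on rich glucose medium, 1 array per time. At 0.5 h, 692 of the 894 valued ORFs called higher at 0.25 h of the pulse were above 0 (77.4%, against 50.4% of all ORFs), and 660 of the 939 called lower were below 0 (70.3%, against 47.7%). At 2 h the shares were 64.1 and 62.9%, and at 4 h they were 50.1 and 47.9%. The lists divide. The polymerase I and III genes had a median ratio of 1.29 at 0.5 h, with 19 of 20 above 0, and the aminoacyl-tRNA synthetases 1.25, with 18 of 18 above 0, and trehalose and glycogen genes had -1.19, with 15 of 19 below 0. The respiratory chain had 0.23, with 22 of 35 above 0, the beta-oxidation genes -0.15, gluconeogenesis genes -0.12 and hexose transporters 0.04. Glycolytic genes had 0.71, with 14 of 17 above 0, where the pulse gave -0.60. The groups of growth and of reserve carbohydrates thus had medians of the same sign in both settings, while the deep falls of respiratory and gluconeogenic genes were seen in the pulse. The reference culture of the mutant had itself grown on glucose. These arrays therefore cannot show whether respiratory and gluconeogenic genes fall when glucose is newly given. Strain, reference culture and time differ between the settings, and the difference was not tested.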

How the data were processed

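For each ORF on an array the authors deposited a single log2 ratio, Cy5 to Cy3, that they had already normalized, and it was used without further normalization. The scanner, the filters and the genome build are not given in the sources used here. Of 6132 ORF names, 5665 were found in the reference annotation (RefSeq, R64) and 5151 had a symbol other than the ORF name. The members and gene lists were chosen with earlier results of these data known. They are 19 lists by function and 13 modules of the study, 16 entries of which were not measured, and genes may be in several.

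One linear model per ORF was fitted with limma 3.58.1 in R 4.3.3, with a coefficient for each of the 7 arrays after the pulse against the 5 steady states (4 residual degrees of freedom), variances moderated by empirical Bayes, and p-values adjusted by Benjamini and Hochberg (threshold 0.05). The labels do not say that the 5 steady states came from separate cultures, so p-values measure only the spread between these arrays. The pulse was also compared with 4 stresses on each first array. Lists were described by counts and medians without a test. Named genes are the 10 largest changes each way at 0.25 h, the 5 each way called first at 1.08 h with an absolute change under 0.5 at 0.25 h, the 5 each way at 9.8 h, the 2 largest of each list and all hexose transporters. One gene that this rule names is not reported here. Other members are named from the lists. The rule also asked for the largest genes against the stresses, of which there were 0. Tested on simulated data with 200 of 6132 genes changed at 0.25 h, the fit recovered 42% of 2-fold and 89% of 4-fold changes, with 2.96% of calls false. All simulated arrays, those after the pulse included, were drawn with the spread of the steady states, and the sign rule was not applied. The rates hold for that setting and are not error rates of the calls reported here. The random seed was 11. Tables and plots used Python 3.11.15, numpy 2.4.6, pandas 2.3.3 and matplotlib 3.10.9. Alternatives covered centering, robust moderation, exact zeros as missing, another baseline and spread, each steady state or stress left out, means for medians and a minimum change. Promoter and protein sequences were not used here.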

Additional observations from a re-analysis of the deposited data

Results flagged for a closer look

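One list had a steady state far from the other 4. The median ratio of the cell cycle G1 module was 0.0484 on the array before the glucose pulse and 0.180 to 0.208 on the other 4 steady states, and the gap made up 0.822 of the whole range. Over 32 lists about 1 in 20 groups is set apart in this way by chance. The changes of that module from its own baseline start from this low array. Their median at 0.25 h was 0.22, or 0.12 from the mean of the 5 steady states. Of 279 genes, 26 were called higher and 7 lower then (9.32% and 2.51%), below the shares over all ORFs (15.1% and 15.7%).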

How the results depend on the processing

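The count of ORFs called at 0.25 h stayed within 1.5 times of 1886 in each alternative except a minimum absolute change of 1, which gave 1035, and this minimum gave 315 at 8.08 h and 316 at 9.8 h. Robust moderation gave 105 at 3.08 h and 80 at 5.08 h. With the array before the pulse as baseline and the spread of repeat histidine-limited arrays as error, the count was 2823 at 0.25 h. From 1.08 h on the counts were then 1768, 1391, 1574, 1303, 1744 and 1805. These repeats are arrays of the same course, in another strain and limitation, so this error holds no spread between courses. Their differences had an SD over ORFs of 0.19 to 0.22, against 0.30 to 0.45 between glucose-limited steady states. With 1 steady state left out the counts ran from 1477 to 1814 at 0.25 h, 132 to 178 at 1.08 h, 27 to 44 at 1.58 h, 0 to 7 at 3.08 h, 1 to 14 at 5.08 h, 300 to 614 at 8.08 h and 252 to 583 at 9.8 h. The lowest counts at 0.25, 1.08, 8.08 and 9.8 h came without the steady state of the DTT course. For 12 lists whose median at 8.08 h exceeded their SD over the steady states, the sign turned when the mean of the 5.08 and 9.8 h arrays stood in its place. These medians were -0.16 for beta-oxidation, -0.023 for trehalose and glycogen, -0.11 for heat shock proteins, 0.18 for RNA polymerases, 0.19 for aminoacyl-tRNA synthetases, 0.0723 for G1 cyclins, 0.18, 0.0769 and 0.41 for the G1, G2-M and histone modules, 0.0609 for mitochondrial ribosomal proteins, 0.0495 for ribosomal biogenesis and -0.0945 for stress. It also turned for 3 lists within that SD, nitrogen permeases (-0.06 to 0.25), PAU (0.0635 to -0.00611) and amino acid biosynthesis (-0.00336 to 0.00653). Against the mean of the 5 steady states the phosphate median at 0.25 h was -0.0216 in place of 0.08. The cause was not tested. The call of each named gene was checked at 1 time only (0.25, 1.08 or 9.8 h). Of these, *BAP3*, *FET4*, *MRH1*, *PET18*, *RPS0A*, *SUV3*, *TIR1*, YAL035CA and YJL043W lost their call in at least 1 alternative. Calls of genes at other times were not checked one by one. By the totals above, most calls at 3.08 and 5.08 h were lost with 1 steady state left out. The comparison with the stresses called 0 ORFs in each alternative. No paired analysis was possible because each time point has 1 array and no group of arrays shares replicate numbers with it. Leaving out the last 2 arrays was chosen after seeing the data.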

Other observations

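Some groups that the lists above do not hold as such were put together after their values were seen, and their counts are descriptions only. Of 11 genes for the synthesis of leucine and the other branched-chain amino acids, 6 were called higher at 0.25 h and 1 lower. *LEU1* (3.21), *OAC1* (3.37), *BAT1* (1.74), *LEU9* (1.69), *ILV2* (1.68) and *ILV3* (1.42) rose, while *BAT2*, the cytosolic transaminase, fell by 0.84, and *ILV5* and *LEU4* had changes of -0.20 and 0.76. The strain lacks *LEU2*, the step after *LEU1*. Of 5 genes of the S-adenosylmethionine cycle, *SAM1* (2.86), *SAH1* (2.21), *SAM2* (2.11) and *MET6* (1.02) rose, and 3 of the 5 were lower at 8.08 h. The 3 genes of the Ato membrane proteins fell together, at -5.82 for *ADY2*, -4.56 for *ATO3* and -4.12 for *ATO2*. Each was called lower again at 1.08 and 1.58 h, and at 5.08 h their changes were 1.24, 0.67 and 1.52. Of 13 translation factor genes, 11 were called higher at 0.25 h and 4 at 1.08 h, among them *YEF3*, elongation factor 3 (2.38), *NIP1*, a subunit of initiation factor 3 (2.18), and the helicase gene *DED1* (2.07), while *TEF1* and *TEF2*, near-identical copies, had changes of 0.58 and 0.20 without a call.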
